A study of Mus musculus with 4 samples.

Results

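The genes described here encode the fibroblast growth factors (FGFs) Fgf2, Fgf7, Fgf9, Fgf10 and Fgf18, the FGF receptors Fgfr1 and Fgfr2, hepatocyte growth factor (Hgf) and its receptor Met. They were taken by name, as all array probe sets annotated to exactly 1 of these 9 genes, which gave 18 probe sets out of 34945 that name a single gene (9 of 18193 genes). The arrays measured primary dermal fibroblasts of mice at postnatal day 1, from ADAM9 knockout animals (adam9 -/-, 2 isolations) and wild-type animals (adam9 +/+, 2 isolations), with 1 array per isolation. ADAM9 is a membrane-anchored metalloprotease, and the comparison addressed gene expression that is altered constitutively by its loss. All cells were plated at equal number in square plates of 10 cm and grown for 48 h with no treatment. The strain, the number of animals behind an isolation and the extent of the deleted part of Adam9 are not stated in the labels, so p-values measure only the spread between isolations, which may be technical.

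FGFs bind receptor tyrosine kinases on the cell surface together with heparan sulfate, and the activated receptor signals through docking proteins to the RAS and MAP kinase pathway, which also induces its own inhibitors. In skin, fibroblasts release Fgf7 (keratinocyte growth factor), Fgf10 and Hgf, and these act mainly on epithelial cells, which carry an epithelial splice form of FGFR2 and the receptor MET. Fibroblasts themselves respond to FGFs mainly through FGFR1, and Fgf2 is a classical mitogen for them.

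The values are deposited log2 expression values, 1 per probe set and array. Array medians lay between 4.84 and 4.88 on this scale. Values of different probe sets are not set against each other, because probes differ in how brightly they hybridise. Adam9 had 8.33 and 8.55 in the knockout isolations 1 and 2, against 11.58 and 11.70 in the wild-type isolations 1 and 2 (log2 difference -3.20, SE 0.15, limma adjusted p = 0.0242). Fibroblast markers such as Col1a2 (13.93 to 14.09) and Pdgfrb (11.72 to 12.03) were high on all arrays. Others were less even, with wild-type isolation 2 the low array. Lum had 12.81 and 12.775 in knockout cells and 12.38 and 10.13 in the wild type. Pdgfra had 12.30 and 12.31 in knockout cells and 11.93 and 10.35 in the wild type. Of the 12 measured, 1 was lower and 2 were higher in the knockout without overlap (22% and 23% of all genes tested). The 12 measured fibroblast markers summed to 110988 and 105192 in knockout cells and 112770 and 92976 in wild-type cells on the linear scale. The X-linked silencing RNA Xist had 10.38 and 10.40 in knockout cells and 4.29 and 4.32 in the wild type, while the Y-linked Eif2s3y had 2.75 and 2.67 in knockout cells and 9.19 and 9.31 in the wild type. The Y-linked Kdm5d and Uty were also lower in the knockout (log2 differences -5.02 and -4.69). By these genes the knockout arrays look female and the wild-type arrays male, though sex is not among the labels. Every genotype difference below was measured between arrays that differ in this way. Genotype and sex therefore cannot be told apart in any of them. In bulk RNA, fewer cells of a type and less RNA per cell cannot be told apart either.

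None of the 9 genes passed the limma test across all genes (0 of 9 at an adjusted p under 0.05, against 0.0678% of the 13271 genes tested). The genes that did pass include Adam9, Xist, Eif2s3y, Kdm5d and Uty. None of the 18 probe sets passed when all single-gene probe sets were tested (background 0.0286%). At an unadjusted p under 0.05 stood 2 of the 9 genes, Fgf7 and Fgf10, where 11.4% of all genes tested did. The genotypes did not overlap for 7 of the 18 probe sets. In 5 of these the knockout was lower (background 20.9% of probe sets), and these were both probe sets of Fgf7, the probe set of Fgf10 and 2 of the 3 probe sets of Fgfr1. In the other 2 the knockout was higher (background 20.1%), by 0.07 log2 units or less. At the gene level 2 of 9 were lower without overlap and 0 were higher, against 22% and 23% of all genes tested. The median difference over the 9 genes was -0.17 log2 units, beside 0.0027 over all genes tested. These counts depend on single arrays. Without knockout isolation 1, 7 of 9 genes were lower without overlap (77.8%, against 40.9% of all genes tested on those 3 arrays) and the median was -0.37. Without knockout isolation 2 it was 4 of 9 (44.4% against 33.2%), without wild-type isolation 1 it was 3 of 9 (33.3% against 34.2%), and without wild-type isolation 2 it was 5 of 9 (55.6% against 33.9%). With 2 arrays per genotype an exact two-sided permutation test cannot give a p below 0.333, so all tests given are those of the fit across all features.

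**Figure D1:**
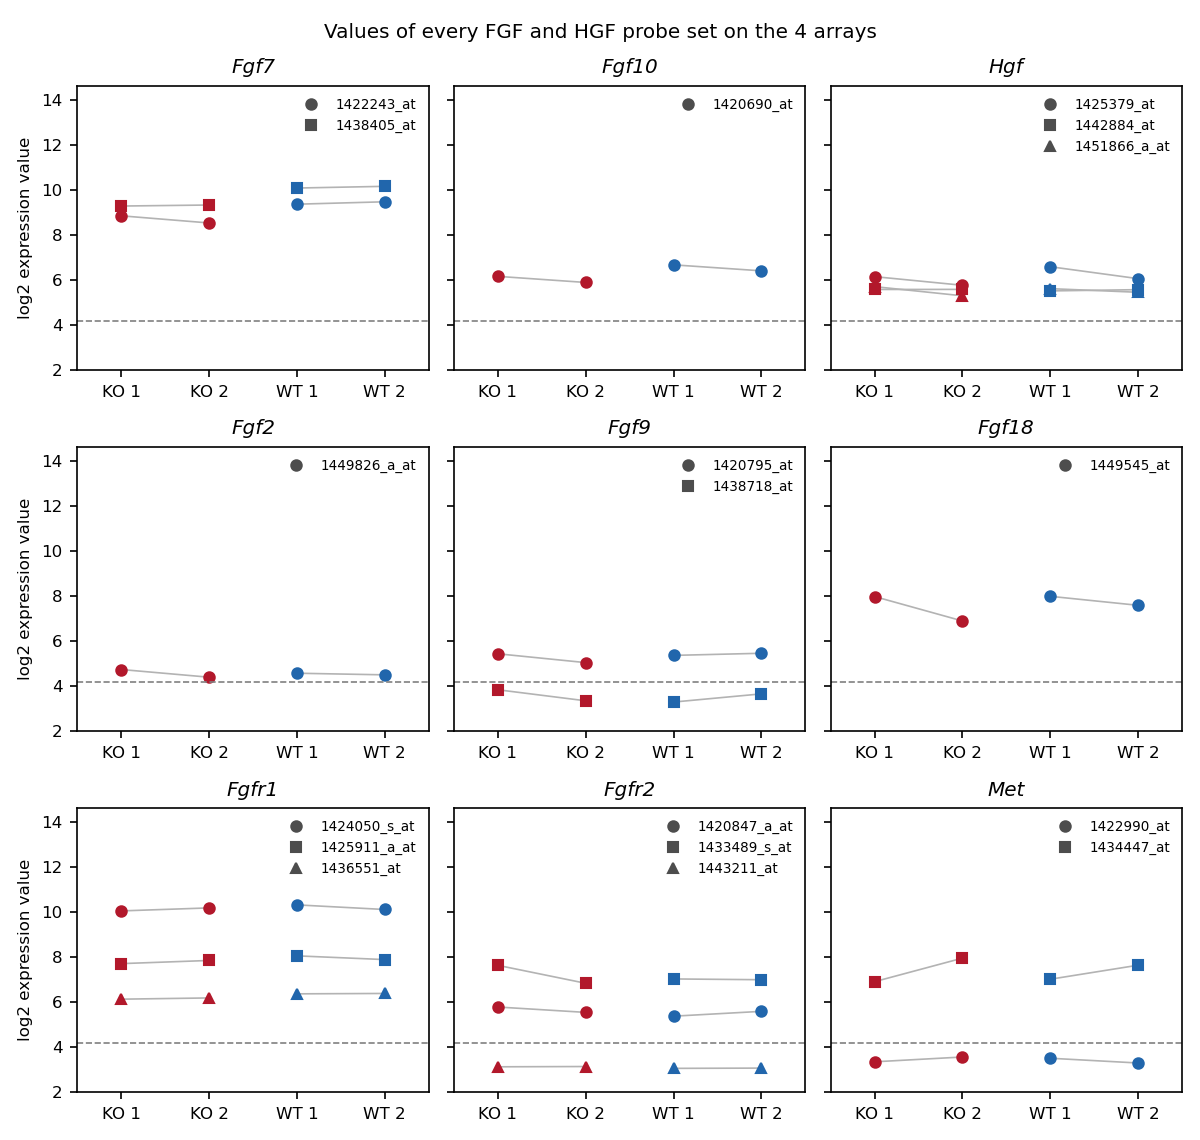
Log2 expression value (vertical axis) of each of the 18 probe sets on the knockout (KO, red) and wild-type (WT, blue) arrays, with 1 panel per gene and 1 symbol per probe set; grey lines join arrays of 1 genotype and the dashed line marks the filter on dim genes. Both Fgf7 probe sets lie lower on the 2 knockout arrays than on the 2 wild-type arrays, while Met follows the isolation number more than the genotype.

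Fgf7 differed most among the members. Its probe set 1438405_at stood at 9.28 and 9.33 (log2) in the knockout isolations, against 10.08 and 10.16 in the wild-type isolations. Both knockout arrays were lower than both wild-type arrays, and the arrays of each genotype were close to each other. The means were 9.30 ± 0.032 in knockout cells and 10.12 ± 0.054 in the wild type (SD, n = 2 each). That is a difference of -0.81 log2 units (SE 0.12, 95% interval -1.13 to -0.50), or 1.76-fold lower in the knockout, which did not pass (limma adjusted p = 0.207 over probe sets and 0.189 over genes). The second probe set of Fgf7, 1422243_at, had 8.85 and 8.53 in knockout cells and 9.36 and 9.47 in the wild type. It stood lower in the knockout by a similar amount (log2 difference -0.73, SE 0.16, limma adjusted p = 0.344), again with no overlap. With any 1 array left out, the gene's difference stayed between -0.85 and -0.77. By unadjusted p Fgf7 ranked 139 among the 13271 genes tested, and 2.96% of these genes had a lower difference.

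Levels of other cell types were compared beside Fgf7 on the same arrays. Macrophage and other leukocyte markers were high on wild-type isolation 1 alone: the 13 markers summed to 594 and 463 in knockout cells and to 11622 and 663 in the wild-type isolations 1 and 2 on the linear scale, and 9 of 13 were lower in the knockout without overlap. Some of these lay only just below wild-type isolation 2, such as Cd68 with 5.24 and 4.44 in knockout cells and 8.55 and 5.32 in the wild type. The Fgf7 difference was -0.81 with all arrays and -0.85 without wild-type isolation 1, where isolation 2 is the only wild-type array. All 9 measured cell cycle markers were higher in the knockout without overlap, with linear sums of 3565 and 6613 in knockout cells and 1176 and 1053 in the wild type. Of the 8 pericyte and smooth muscle markers 6 were lower in the knockout without overlap, in the same direction as Fgf7, and 2 were higher without overlap (Abcc9 and Kcnj8). Myh11, a smooth muscle myosin, had 6.55 and 5.48 in knockout cells and 8.71 and 9.57 in the wild type. The list summed to 15462 and 14137 in knockout cells and 15948 and 17191 in the wild type. These sums are mostly Acta2, by far the brightest of the list, with 13.82 and 13.74 in knockout cells and 13.87 and 13.96 in the wild type. Of 8 endothelial markers 1 was lower and 3 were higher without overlap, and of 6 melanocyte markers 2 were lower and 0 higher. Beside these counts, 22% of all genes tested were lower and 23% higher in the knockout without overlap. The part of these cell type and cell cycle markers in the Fgf7 difference was not tested.

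Fgf10, a close relative of Fgf7 that binds the same epithelial receptor form and is needed for limb and lung budding, had 1 probe set. It stood at 6.17 and 5.90 in the knockout, against 6.68 and 6.41 in the wild type. The groups did not overlap, and isolation 1 was the higher array in each genotype. The difference was -0.51 log2 units (SE 0.17, 95% interval -0.96 to -0.07, 1.43-fold lower) and did not pass (limma adjusted p = 0.474 over probe sets, 0.417 over genes). It lay between -0.65 and -0.38 with 1 array left out.

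Hgf is secreted as an inactive single chain, and 3 probe sets measured its transcript. The probe set with the highest mean, 1425379_at, which represents the gene, had 6.15 and 5.77 in the knockout, against 6.59 and 6.07 in the wild type. The genotypes overlapped, because knockout isolation 1 lay above wild-type isolation 2. Its difference was -0.37 log2 units (SE 0.24, 95% interval -1.01 to 0.27, limma adjusted p = 0.677), and leaving out a wild-type array gave -0.10 (isolation 1) or -0.63 (isolation 2). The other Hgf probe sets did not follow it. Probe set 1442884_at had 5.59 and 5.59 in knockout cells and 5.52 and 5.58 in the wild type (difference 0.04), and 1451866_a_at had 5.71 and 5.31 in knockout cells and 5.62 and 5.46 in the wild type (difference -0.03). The mean over the Hgf probe sets differed by -0.12. The intervals of all 3 Hgf probe sets include 0.

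**Figure D2:**
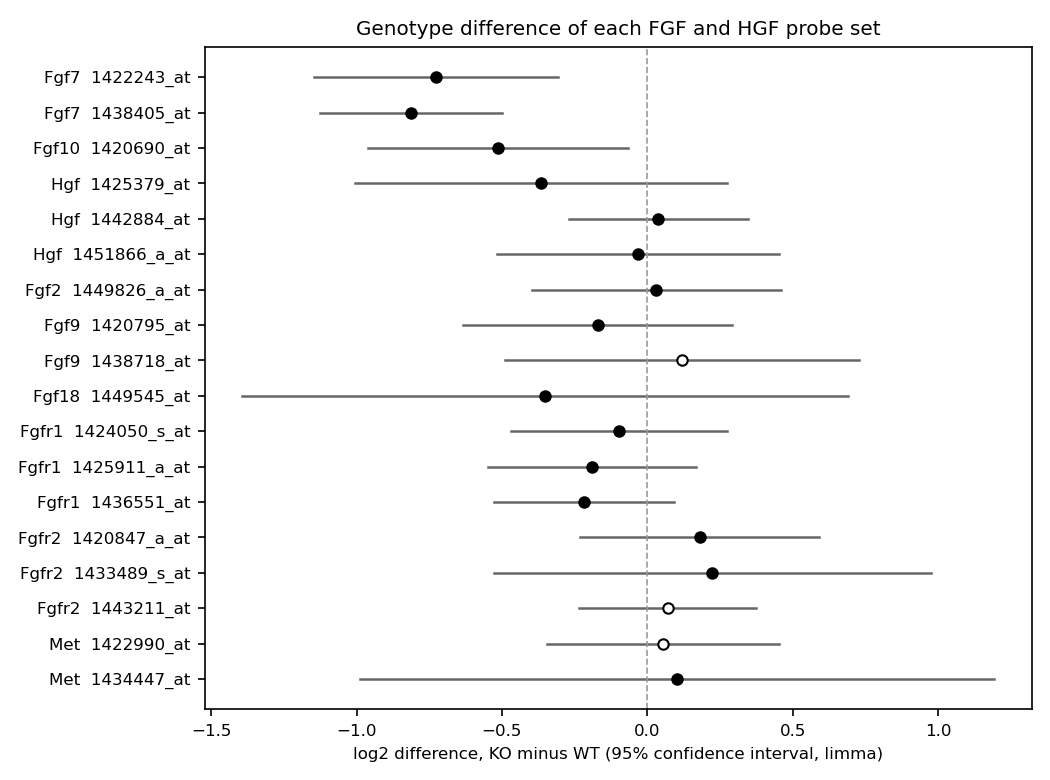
Log2 difference, knockout minus wild type (horizontal axis), of each probe set with its 95% confidence interval from limma; open circles mark the 3 probe sets whose mean did not exceed the filter on dim values. The intervals of both Fgf7 probe sets and of Fgf10 lie below 0, and the other 15 include 0.

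The promoters of Fgf7 and Fgf10 are shown because these are the ligand genes whose probe sets were all lower in the knockout without overlap. The RefSeq promoter table (GRCm38.p6, from 250 bases before to 50 after a start site) held 8 of the 9 members. Capitals mark matches, on either strand, to any of 4 motifs that do not overlap here: the TATA box TATAAA, the GC box GGGCGG, the AP-1 site TGANTCA and the E-box CACGTG. The Fgf7 window lies at chr2:126034408-126034707 and the Fgf10 window at chr13:118714449-118714748, both on the plus strand.
Fgf7: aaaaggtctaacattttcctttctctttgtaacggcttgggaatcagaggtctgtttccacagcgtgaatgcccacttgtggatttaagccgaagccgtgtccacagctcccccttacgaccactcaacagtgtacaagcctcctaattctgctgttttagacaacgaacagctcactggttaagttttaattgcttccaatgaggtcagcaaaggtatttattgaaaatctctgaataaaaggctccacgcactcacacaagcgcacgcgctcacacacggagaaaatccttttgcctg
Fgf10: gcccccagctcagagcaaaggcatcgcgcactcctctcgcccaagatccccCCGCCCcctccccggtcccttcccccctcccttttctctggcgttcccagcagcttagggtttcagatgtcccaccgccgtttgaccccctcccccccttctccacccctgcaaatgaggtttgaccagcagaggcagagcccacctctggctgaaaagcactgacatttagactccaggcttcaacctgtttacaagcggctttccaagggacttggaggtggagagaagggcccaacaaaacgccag
The Fgf7 window held 0 of these motifs and the Fgf10 window held 1, a GC box read on the opposite strand. Over all 32851 windows of this length in the table, the TATA box was found in 13.6%, the GC box in 35.7%, the AP-1 site in 7.81% and the E-box in 7.15%. The GC content was 45.7% for Fgf7 and 60.7% for Fgf10, against a median of 52.7% over all windows. These matches describe letters only, and the arrays did not measure binding.

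The other FGF ligands among the members did not separate the genotypes. Fgf2, which lacks a classical signal peptide and is released by other routes, had 4.74 and 4.40 in the knockout, against 4.58 and 4.51 in the wild type. These values lie close to the filter on dim values (4.17), and the knockout arrays enclosed the wild-type arrays (log2 difference 0.03, 95% interval -0.40 to 0.46). Fgf9, a ligand for several FGF receptors, had 5.44 and 5.05 in knockout cells and 5.37 and 5.46 in the wild type at the probe set that represents it (difference -0.17, SE 0.18, limma adjusted p = 0.786; -0.026 as the mean over its probe sets). Its second probe set, 1438718_at, had a mean below the filter, with 3.85 and 3.36 in knockout cells and 3.30 and 3.66 in the wild type.

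Fgf18, known for roles in skeletal and hair follicle growth, varied more between isolations than between genotypes. It had 7.97 and 6.89 in the knockout, against 7.99 and 7.59 in the wild type. Knockout isolation 2 was the low array, and knockout isolation 1 lay inside the wild-type range. The difference was -0.35 (SE 0.40, 95% interval -1.39 to 0.69, limma adjusted p = 0.809). Without knockout isolation 2 it turned to 0.19, and without knockout isolation 1 it was -0.89.

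Among the receptors, Fgfr1 was measured by 3 probe sets. Probe set 1424050_s_at had 10.04 and 10.17 in knockout cells and 10.31 and 10.10 in the wild type, which overlapped (difference -0.10, SE 0.14). Its suffix marks probes that may match transcripts of more than 1 gene. Without _x_at and _s_at probe sets the difference of the gene Fgfr1 was -0.19. Probe set 1425911_a_at had 7.71 and 7.85 in knockout cells and 8.05 and 7.88 in the wild type, and 1436551_at had 6.13 and 6.19 in knockout cells and 6.37 and 6.38 in the wild type. Both of these were lower in the knockout without overlap, by 0.19 and 0.22 log2 units as sizes of the difference, or 1.14-fold and 1.16-fold lower (limma adjusted p = 0.693 and 0.621). The difference of 1425911_a_at was -0.11 without wild-type isolation 1 and -0.12 without knockout isolation 1. All 3 Fgfr1 intervals include 0, and their lowest limit is -0.55. Fgfr1 lies on chromosome 8, as Adam9 does, and the strain is not stated. Loss of ADAM9 and sequence linked to the knocked-out locus therefore cannot be told apart for Fgfr1.

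Fgfr2, whose epithelial form is the receptor for Fgf7 and Fgf10, had 7.63 and 6.83 in knockout cells and 7.03 and 6.99 in the wild type at 1433489_s_at. The wild-type arrays were nearly equal and lay between the knockout arrays (difference 0.22, SE 0.29, 95% interval -0.53 to 0.97). Without knockout isolation 1 it was -0.18, and without knockout isolation 2 it was 0.62. This probe set has the same _s_at suffix as the first of Fgfr1. Without _x_at and _s_at probe sets the difference of the gene Fgfr2 was 0.18. Probe set 1420847_a_at had 5.78 and 5.55 in knockout cells and 5.38 and 5.59 in the wild type (difference 0.18, limma adjusted p = 0.749; 0.061 without knockout isolation 1). The third, 1443211_at, was below the filter, with 3.13 and 3.15 in knockout cells and 3.07 and 3.08 in the wild type. Which splice form each probe set reads is not stated in the annotation used.

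Met, the receptor of Hgf, had 6.91 and 7.95 in the knockout isolations 1 and 2, against 7.01 and 7.64 in the wild-type isolations 1 and 2 at 1434447_at. In both genotypes isolation 2 was the higher array, and the genotypes overlapped fully (difference 0.10, SE 0.41, 95% interval -0.99 to 1.19, limma adjusted p = 0.960). Leaving out a knockout array gave 0.62 (isolation 1) or -0.42 (isolation 2), and leaving out a wild-type array gave -0.21 (isolation 1) or 0.41 (isolation 2). The other Met probe set, 1422990_at, lay below the filter, at 3.36 and 3.57 in knockout cells and 3.51 and 3.30 in the wild type.

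Of the 14 measured epithelial markers 7 exceeded the filter and 7 did not. The cadherin Cdh1 lay between 2.29 and 2.39 over the 4 arrays, the basal keratin Krt14 between 3.53 and 3.96, and Esrp1, the splicing factor that makes the epithelial FGFR2 form, between 2.48 and 2.73, all below the filter. The keratin Krt10 lay between 6.49 and 7.17, the adhesion molecule Epcam between 6.49 and 6.98, and Esrp2, a relative of Esrp1 with the same role, between 4.90 and 5.48, all above it. The linear sums of the 14 markers were 452 and 467 in knockout cells and 510 and 712 in wild-type cells. Krt18, a keratin of simple epithelia, had 4.33 and 4.59 in knockout cells and 6.29 and 8.31 in the wild type. It was the brightest of the 14 on wild-type isolation 2, so the sums do not stand for the list as a whole. Krt10 had 7.17 and 7.02 in knockout cells and 6.92 and 6.49 in the wild type. Without overlap, 2 of the 14 were lower in the knockout (Krt18 and Krt14) and 2 were higher (Krt10 and Krt1). Beside these, 22% of all genes tested were lower and 23% higher without overlap.

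**Figure D3:**
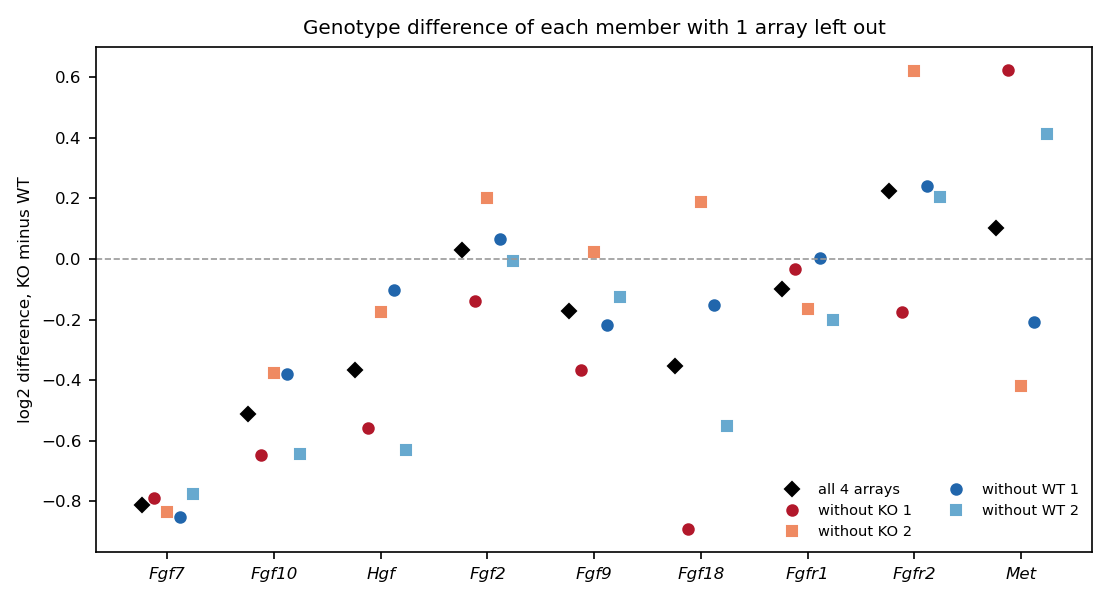
Log2 difference, knockout minus wild type (vertical axis), of the probe set that represents each member, with all 4 arrays (black) and with each array left out (coloured). Fgf7 stays between -0.85 and -0.77 and Fgf10 between -0.65 and -0.38, Hgf stays below 0, and the other 6 members lie on both sides of 0.

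The rest of the pathway was described from 6 lists of 118 genes, of which 110 had a probe set naming them alone and 93 exceeded the filter. None of the 93 passed in either direction (limma, 0 higher and 0 lower at an adjusted p under 0.05). Of the 93, 10 had an unadjusted limma p under 0.05, beside 11.4% of all genes tested. The knockout was lower without overlap for 31 of the 93 and higher without overlap for 11, beside the 22% and 23% of all genes tested. The lists were chosen with earlier results of these arrays known.

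Among 11 other FGF ligands the median difference was 0.02, with 2 lower and 1 higher without overlap. That median turned to -0.05 without knockout isolation 1 and to -0.10 without wild-type isolation 2. Fgf21, a hormone-like FGF induced by metabolic stress, had 7.49 and 7.71 in the knockout, against 7.14 and 6.44 in the wild type (difference 0.81, SE 0.27, limma adjusted p = 0.417; 0.46 without wild-type isolation 2). Fgf1, which binds all FGF receptors, had 3.95 and 4.26 in knockout cells and 4.34 and 4.29 in the wild type (difference -0.21; -0.055 without knockout isolation 1 and -0.36 without knockout isolation 2). Its knockout mean (4.10) lay below the filter on dim values (4.17), so Fgf1 was kept only through its wild-type mean (4.31). Fgf23, the other ligand counted as lower, lay between 4.18 and 4.33, also near the filter. Among 12 other receptors and co-receptors the median was -0.11 (-0.12 to -0.02 with 1 array left out), with 3 lower and 1 higher without overlap. The largest differences without overlap were those of Nrp1, a co-receptor for several growth factors, at -0.49 (SE 0.21, limma adjusted p = 0.476), and of Fgfrl1, an FGF receptor without a kinase domain, at -0.18. Nrp1 differed by -0.30 without wild-type isolation 1 and by -0.32 without knockout isolation 1. Fgfrl1 differed by -0.044 without knockout isolation 1 and by -0.32 without knockout isolation 2 or without its _s_at and _x_at probe sets.

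Of 23 genes for heparan sulfate proteoglycans, the enzymes that build or trim heparan sulfate and FGF carriers, 9 were lower and 4 higher in the knockout without overlap (median -0.15). The glypican Gpc3 had 8.97 and 9.30 in the knockout, against 7.93 and 5.66 in the wild type (difference 2.34, SE 0.78, limma adjusted p = 0.413). Wild-type isolation 2 was the low array, and without it the difference was 1.21. The sulfotransferase Hs3st1 differed by 1.02 (SE 0.54), by 0.25 without the same array and by 1.80 without wild-type isolation 1. Next in size without overlap were the glypican Gpc4 (-0.89, SE 0.12, limma adjusted p = 0.164) and the syndecan Sdc3 (-0.82, SE 0.19, limma adjusted p = 0.299), both lower in the knockout. Of 13 genes for HGF activation with a probe set, 5 exceeded the filter. These 5 had a lower mean in the knockout (median -0.27, and -0.46 to -0.12 with 1 array left out), and 3 did not overlap. Among the 5, St14 (4.23 to 4.38, difference -0.08) and Hpn (4.71 to 4.87, difference -0.10, without overlap) lay near the filter on dim values (4.17). Spint2, a membrane inhibitor of the proteases that activate HGF, had 6.69 and 6.72 in the knockout, against 7.30 and 7.27 in the wild type (difference -0.58, SE 0.12, limma adjusted p = 0.279), and the mean over its probe sets differed by -0.88. The plasminogen activator Plat differed by -0.27 (SE 0.18), by -0.081 without wild-type isolation 1 and by -0.46 without wild-type isolation 2.

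Of 21 docking and signal relay genes, 11 were lower and 1 was higher in the knockout without overlap, and their median was -0.16. The largest differences without overlap were -0.55 for Pik3r1, a regulatory subunit of PI3 kinase (SE 0.26, limma adjusted p = 0.503), and -0.54 for Sos2, an exchange factor for RAS (SE 0.13, limma adjusted p = 0.312). Pik3r1 differed by -0.30 without wild-type isolation 1, by -0.32 without knockout isolation 2 and by -0.30 as the mean over its probe sets. With 1 array left out, 13 to 15 of 21 were lower without overlap, against 33.2% to 40.9% of all genes tested on the same 3 arrays. Over the same settings the counts lower without overlap were 2 to 6 of 11 for other FGF ligands, 4 to 6 of 12 for other receptors, 9 to 14 of 23 for heparan sulfate and carriers, 3 to 5 of 5 for HGF activation and 4 to 9 of 21 for feedback inhibitors and targets. Feedback inhibitors and targets had a median of 0.19, with 3 of 21 lower and 4 of 21 higher without overlap. Etv5, a transcription factor induced by FGF signalling, had 7.78 and 8.76 in the knockout, against 7.74 and 7.45 in the wild type (difference 0.68, SE 0.36, limma adjusted p = 0.541; 0.19 without knockout isolation 2 and 1.16 without knockout isolation 1). Phlda1 differed by -0.74 (SE 0.35), by -0.26 without wild-type isolation 2 and by -1.22 without wild-type isolation 1. The median of the feedback list was -0.04 without knockout isolation 2, so its direction rests on that array.

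**Figure D4:**
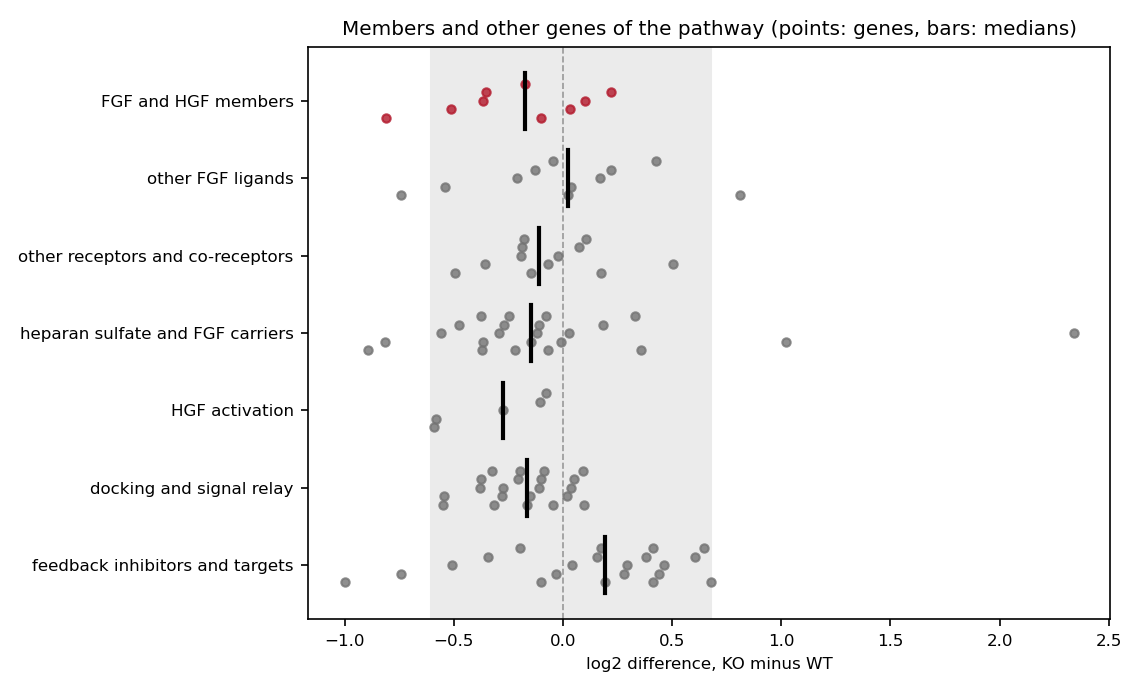
Log2 difference, knockout minus wild type (horizontal axis), of each tested gene among the members (red) and in the 6 pathway lists (grey), with black bars at the medians and a grey band from the 5th to the 95th percentile of all genes tested (-0.604 to 0.68). Fgf7 is the 1 member outside the band, and Gpc3 at 2.34 lies farthest from 0 in the lists.

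For each member, the 3 tested genes with the most similar values over the 4 arrays were sought by Euclidean distance after each gene was centred on its own mean. Nearest to Fgf7 were Prps2 (distance 0.075 log2 units), Nbl1 (0.079) and the glypican Gpc4 (0.086), which had 10.97 and 11.04 in knockout cells and 11.88 and 11.92 in the wild type. Gpc4 differed by -0.89 log2 units (SE 0.12, limma adjusted p = 0.164). Nearest to Fgf10 were Zfp712, Ip6k2 and Kdm5b, and nearest to Hgf were Ypel1, Arsa and the glypican Gpc6 (0.075). Fgf2 was most like Ogg1, Srd5a3 and Radil, Fgf9 most like Dpcd, Napb and Nipa1, and Fgf18 most like Hfe, Omd and Ifit1. The receptors were most like Aggf1, Strn3 and Mei4 (Fgfr1), A730020M07Rik, 4930431P19Rik and 1700008J07Rik (Fgfr2), and Ivns1abp, Galnt6 and Odc1 (Met). With 4 arrays such likeness is a description.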

How the data were processed

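The authors deposited 1 log2 value per probe set and array, made with Affymetrix Expression Console per the submitters' processing notes. Neither its version nor how probes were summarised is stated, and log2 was taken from the range of the values. Detection calls were not used, so the background of low values is unknown, and precision is limited by the number of arrays. Probe sets were named from the platform annotation, updated by Entrez identifier through RefSeq (GRCm38.p6). Of 45101 probe sets, 34945 non-control ones named 1 gene.

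The genotype test was limma (version 3.58.1, R 4.3.3; moderated linear model, p-values adjusted by Benjamini-Hochberg), once with each gene's probe set of highest mean, kept above the 40th percentile of probe set means (4.17), and once with all 34945 probe sets unfiltered. The residual degrees of freedom were 2, and 95% intervals are moderated. The fit was run on simulated data whose added differences were larger than those of the members. That run does not show how often differences of member size would pass. Linear sums are sums of 2 to the power of the log2 values. Named genes were all members, in each pathway list the 2 largest differences without overlap, and the 3 nearest profiles. Members and lists were chosen with earlier results of these data known. Of the pathway genes, 8 had no probe set naming them alone and were not analysed here.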

Additional observations from a re-analysis of the deposited data

How the results depend on the processing

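Of the 9 member genes, the 18 member probe sets and the pathway genes, 0 passed under every alternative run: other filters, 3 normalizations, the mean over probe sets, leaving out _x_at and _s_at probe sets, an intensity trend, the isolation number as a replicate block, and each array left out. Over all genes 9 passed, 2 passed with the replicate block and 0 with any 1 array left out (0 to 0), where fewer samples remained. Isolation numbers were not stated to pair the arrays; the correlation across genes of isolation 1 minus isolation 2 between genotypes was 0.116. Fgf7 kept its direction in all 13 alternatives (-0.85 to -0.77; limma adjusted p 0.176 to 0.790), as did Fgf10 (-0.65 to -0.38) and Hgf (-0.63 to -0.10). With 1 array left out, other members changed sign: Fgf2 ranged from -0.14 to 0.20, Fgf9 from -0.37 to 0.024, Fgf18 from -0.89 to 0.19, Fgfr1 from -0.20 to 0.0038, Fgfr2 from -0.18 to 0.62 and Met from -0.42 to 0.62. So did probe sets 1438718_at of Fgf9 (-0.13 to 0.36), 1451866_a_at of Hgf (-0.24 to 0.17) and 1422990_at of Met (-0.053 to 0.16). The cause was not tested. Fgf2 and Fgf9 were not tested at the 60th percentile filter. Leaving out arrays for the counts without overlap was chosen after seeing the data; member probe sets lower without overlap were 11 of 18 without knockout isolation 1 (61.1%, against 37.9% of all probe sets on those arrays), 7 without knockout isolation 2 (38.9% against 35.6%), 6 without wild-type isolation 1 (33.3% against 35%) and 8 without wild-type isolation 2 (44.4% against 33.5%).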
